A study of Mus musculus with 4 samples.

Results

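The mouse T cell receptor delta locus (Tcrd; gene symbols Trd) lies on chromosome 14, inside the larger T cell receptor alpha locus. This report describes the stretch of Trd between the INT2 element and the TEA promoter, as seen by 4C-seq, which counts how often a chosen DNA fragment (the viewpoint) was ligated to every other fragment of the genome. The stretch was taken as all HindIII fragments lying beyond the fragment next to INT2 and before the fragment next to TEA, a choice by position that used no contact value. It holds 29 fragments of the 26314 chromosome 14 fragments captured in any library, and runs from 54688077 to 54769466 on chromosome 14 (mm9), a width of 81.4 kb. The fragments are numbered 1 to 29 from INT2 to TEA, and they measure 287 to 15421 bp with a median of 1399 bp. A run of 1384 bp between fragments 23 and 24 was not listed in any library.

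The cells compared were DN and B cells, each seen from the same 4 viewpoints. The DN samples were CD4-CD8- thymocytes of C57BL/6 Rag2-/- mice, taken from litters at 3 weeks of age. The B samples were naive B cells from the spleen of wild-type C57BL/6 mice, whose age and isolation are not given in the sources used here. With 2 samples of each kind and 1 library for every sample and viewpoint, the comparison rests on 16 libraries. Genotype and cell type go together in this design, so a Rag2-/- effect and a thymocyte effect cannot be told apart. The labels do not say whether the samples of a cell type came from separate litters or animals, and p-values then measure only the spread between these samples. No RNA was measured, so the cell type labels were not checked against marker genes.

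Trd is assembled in thymocytes by V(D)J recombination, in which the RAG proteins cut beside V, D and J segments and the ends are joined into 1 exon for the variable part of the receptor. Without Rag2 no segment can be cut, so the locus of the DN cells keeps its germline order. Mature alpha beta T cells lose most of Trd, because joining a V segment to a J-alpha segment deletes the DNA between them. B cells rearrange the immunoglobulin loci and do not assemble a T cell receptor.

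The gene order in the RefSeq GRCm38.p6 table, read from INT2 to TEA, is Trdv4, Trdd1, Trdd2, Trdj1, Trdj2, Trdc and Trdv5, and all 7 symbols were found there. Trdv4 is a V segment close to the D segments Trdd1 and Trdd2, which are joined to the J segments Trdj1 and Trdj2. Trdc encodes the constant region of the delta chain, and Trdv5 is a V segment beyond it in inverted orientation. Ed is the Tcrd enhancer, INT1 and INT2 are intergenic elements known to bind CTCF, and TEA is the germline promoter at the 5′ end of the J-alpha array. The table is of another build than the files, so genes were not placed on single fragments, and no fragment sequence was read.

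INT1 was read from the fragment at 54677060 to 54677623 and INT2 from that at 54680988 to 54683873. The Ed fragment spans 54763263 to 54765182, and the TEA fragment spans 54769627 to 54773311. Ed thus lies inside the stretch and is fragment 26, with 25 members on its INT2 side and 3 on its TEA side. From Ed itself, fragments 25 to 27 were left out as the viewpoint and its neighbours, which leaves 26 members. A level below is the reads on a fragment as a percentage of the library's chromosome 14 reads, leaving out the viewpoint and the fragments next to it. Levels are per fragment and not per length, so levels of different fragments are set side by side as contacts of that fragment only.

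The libraries held 1220738 to 17287420 mapped reads, of which 169129 to 2851909 counted towards chromosome 14. A level of 0 allows up to 3 reads, which is 0.000105% to 0.00177% of the chromosome 14 reads depending on the library. These limits cover counting error only, since 4C reads are copied by PCR and are not independent molecules. Per the file headers sequencing data lay in 3 folders. The DN samples had a folder each and the B samples shared the remaining 1, so 0 folders held both cell types. Sequencing folder and cell type therefore cannot be told apart in any comparison given here.

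From all 4 viewpoints the Trd stretch took a larger share of chromosome 14 reads in the DN thymocytes than in the B cells. From INT1 the stretch held 6.27% and 10.3% of the reads in the DN replicates, against 2.55% and 3.06% in the B replicates. From INT2, which lies nearer to the stretch, it held 25.2% and 30.01% in DN against 9.32% and 9.86% in B. Seen from TEA, at the other end, it held 35.0% and 32.2% in DN against 9.56% and 9.63% in B. In all 3 comparisons both DN values exceeded both B values, although from INT1 the DN replicates lay further apart than the lower DN value from the higher B value.

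From the Ed enhancer the stretch held 47.4% and 40.1% of the reads in DN against 28.0% and 31.0% in B, again with no overlap. The mean over the DN libraries was 8.29% ± 2.86 (SD, n = 2) from INT1, 27.6% ± 3.40 from INT2, 43.7% ± 5.13 from Ed and 33.6% ± 1.97 from TEA. The B means were 2.81% ± 0.363, 9.59% ± 0.376, 29.5% ± 2.16 and 9.60% ± 0.0485 in the same order. The DN mean was thus 2.96-fold, 2.88-fold, 1.48-fold and 3.50-fold the B mean. The exact two-sided permutation test gave p = 0.333 from each viewpoint, which is the smallest value that 2 samples against 2 can give.

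The size of the difference depended on what the stretch was measured against and, from INT1, on 1 library, since the difference of 5.49 percentage points was 3.47 without DN replicate 2. With reads within 1 Mb of the viewpoint as the denominator the DN to B ratio was 1.67 from INT1, 1.08 from INT2 and 1.14 from TEA, and from Ed it turned to 0.903, with 68.6% in DN and 76.0% in B. From TEA the libraries then overlapped, with DN replicate 2 at 41.8% and B replicate 1 at 44.0%. With all mapped reads the ratios were 7.04, 6.46, 2.87 and 10.8 from INT1, INT2, Ed and TEA. With each captured fragment counted once they were 1.44, 1.81, 1.72 and 1.45. With 2 fragments left out on each side of the viewpoint in place of 1, the ratio was 4.47 from INT2 and 3.35 from Ed.

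**Figure D1:**
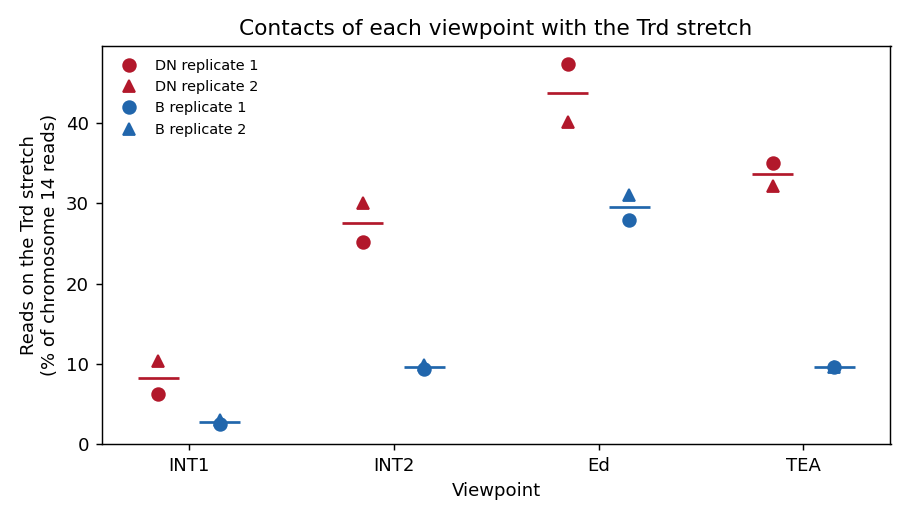
Reads on the Trd stretch as a percentage of chromosome 14 reads, for each of the 4 viewpoints, with 1 point per library and a bar at the mean of the 2 libraries of a cell type. Both DN libraries sit above both B libraries at every viewpoint, with the widest ratio of means at TEA (3.50) and the narrowest at Ed (1.48).

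Capture of the single fragments differed between viewpoints and between cell types. From INT1 and INT2 all 29 fragments were captured in both DN libraries, and 24 and 26 of them in both B libraries. Seen from TEA, 24 of 29 fragments were captured in both DN libraries and 23 in both B libraries, and from Ed the numbers were 21 and 14 of 26. Fragments 6, 7, 10 and 18 had 0 reads in all 4 Ed libraries and in all 4 TEA libraries, and fragment 25 had 0 reads in all 4 TEA libraries. The same 5 fragments had reads from INT1 and INT2 in both DN libraries.

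Fragment 7, at 54703863 to 54705100, had the lowest mean level from INT1 and INT2, and was among those at 0 from Ed and TEA. From INT2 it held 0.0152% and 0.00321% in DN against 0.00114% and 0.000777% in B, and both DN values exceeded both B values. From INT1 it held 0.000101% and 0.00151% in DN, of which the first is under the limit of 3 reads, and 0% in both B libraries. It was too low for the test of either viewpoint.

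**Figure D2:**
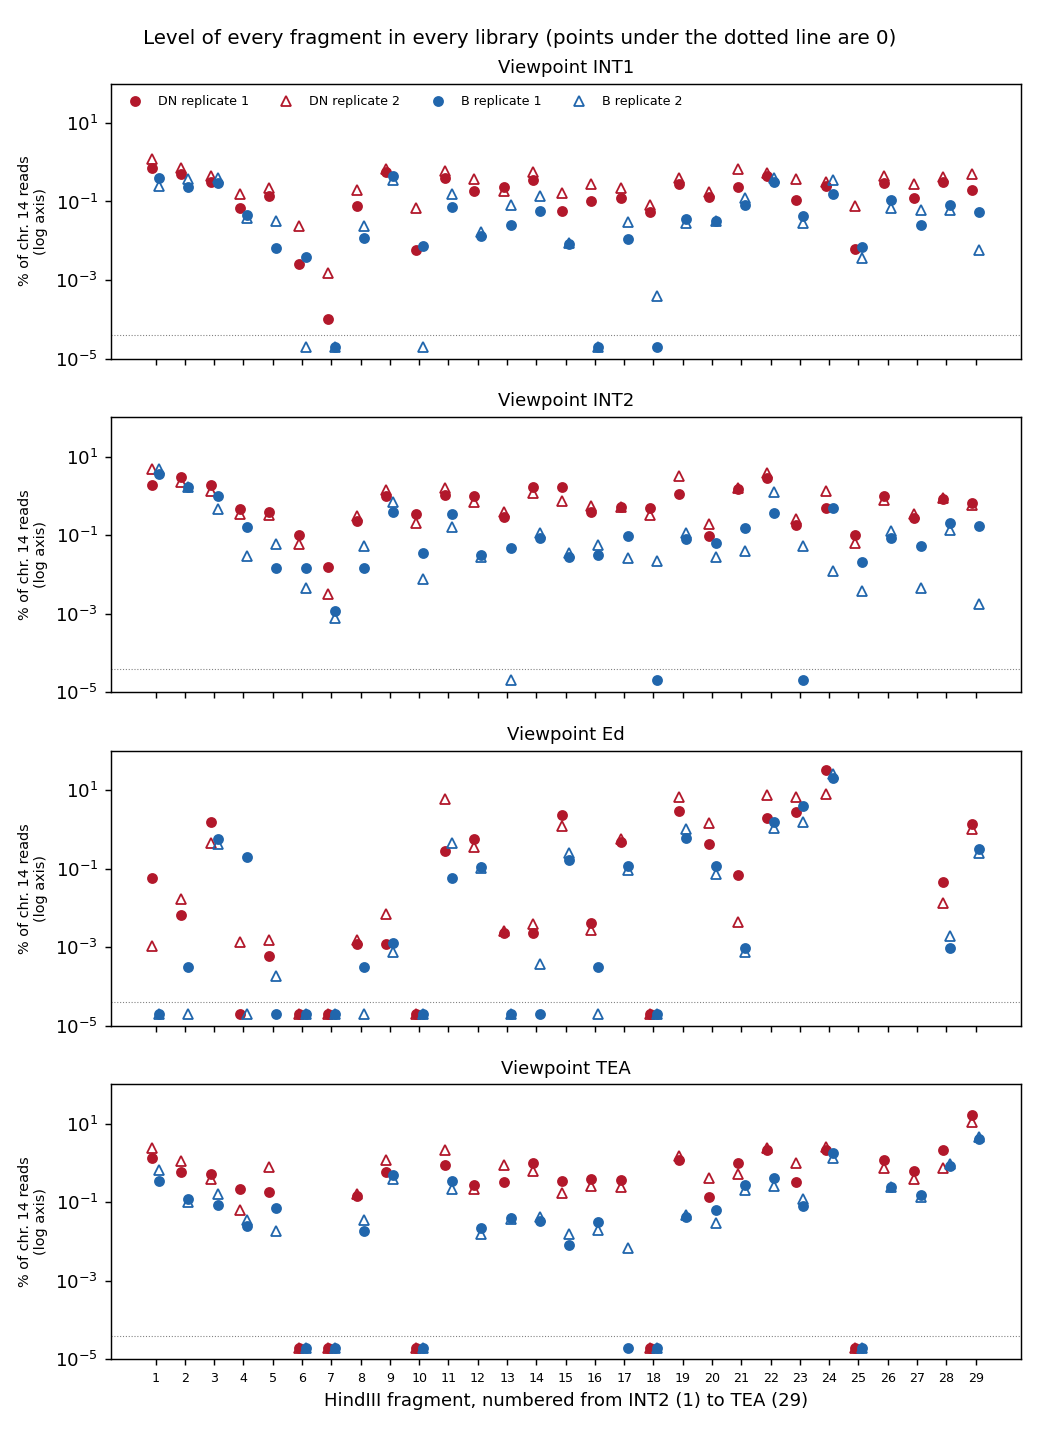
Level of every fragment in every library, as a percentage of chromosome 14 reads on a log axis, by fragment number from INT2 (1) to TEA (29) and by viewpoint; points under the dotted line are 0. Fragments 6, 7, 10 and 18 sit at 0 in all libraries of Ed and TEA, and the highest levels from Ed and TEA are in fragments 24 and 29, which lie near the viewpoint.

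Single fragments were compared with limma on log2 of reads per 1000000 chromosome 14 reads with 10 added, over all fragments within 1 Mb of the viewpoint that held a mean of at least 100 on that scale. The filter left out fragments 6 and 7 from INT1, fragment 7 from INT2, fragments 6, 7, 10, 18 and 25 from TEA, and 11 of 26 members from Ed (2, 5 to 10, 13, 14, 16 and 18). A member that is near 0 in B can pass the filter through its DN level alone, so the counts over tested members below are descriptions. A log2 change is DN minus B on this scale, which understates the change of low fragments, and adjusted p is Benjamini-Hochberg over all fragments tested for the viewpoint with a threshold of 0.05. The median log2 change of all tested fragments was 2.07 from INT1, 2.11 from INT2, 2.29 from Ed and 2.20 from TEA, and the members are read against it. TMM scaling put these medians at 0.92, 1.08, 1.25 and 0.76, and scaling to all mapped reads at 3.05, 3.05, 3.01 and 3.47.

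From INT1, 8 of the 27 tested members rose in DN, which is 29.6%, against 18.8% of all 420 tested fragments, and 0 members fell, against 0.714% of all. Fragments 16 and 18 are among the 8 but are near 0 in B and passed the filter through DN alone. Among fragments with a mean of at least 100 in each cell type, 6 of 22 members rose, against 12.8% of 296 fragments. At an unadjusted limma p under 0.05 with DN higher there were 20 members, against 38.6% of all. The median log2 change of the members was 2.22 with a range of 0.10 to 7.41, and 18 of 27 lay above the median of all fragments. Both DN values exceeded both B values in 23 of 27 members, against 59.3% of all tested fragments, and in 20 of the 22 with the minimum in each cell type, against 54.7%. The 8 fragments were 11, 12, 14, 16, 18 and 19, in a block on the INT2 side of Ed, and 26 and 28, which are Ed itself and a fragment on its TEA side.

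Fragment 16, at 54731958 to 54732360, held 0.104% and 0.273% of the INT1 reads in DN and 0% in both B libraries. With 3 reads allowed in each B library the ratio was at least 419, a limit that covers counting error only and not PCR copying. From INT2 and TEA the fragment had reads in both B libraries, and the ratios of means there were 10.7 and 12.9. Its neighbour fragment 18, at 54732973 to 54733259, is the shortest of the stretch and held 0.0545% and 0.0802% in DN. In B it held 0% and 0.000385%, the latter at the limit of 3 reads, so no ratio is given. Since both passed the filter only through the DN libraries, their levels are given as a description and their calls are not support for a difference.

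Fragment 19, at 54733266 to 54735091, held 0.277% and 0.392% in DN against 0.0354% and 0.0284% in B. The DN libraries were 10.5-fold higher on average and did not overlap with B (limma log2 change 3.34 ± 0.52 SE, adjusted p = 0.0303). Fragment 12, at 54726143 to 54727416, held 0.182% and 0.364% in DN against 0.0132% and 0.0164% in B. That is an 18.4-fold ratio of means, again without overlap (limma log2 change 4.04 ± 0.69 SE, adjusted p = 0.0303).

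The other 4 fragments that rose had smaller ratios. Fragment 11, at 54722436 to 54726136, held 0.404% and 0.597% in DN against 0.0732% and 0.158% in B, a ratio of 4.33 (limma adjusted p = 0.0414). Fragment 14, at 54728515 to 54730564, held 0.360% and 0.547% against 0.0565% and 0.137%, a ratio of 4.70 (limma adjusted p = 0.0435). Their log2 changes, 2.18 and 2.32, lay 0.11 and 0.25 above the median of all fragments tested from INT1.

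Fragment 26, which carries the Ed viewpoint, held 0.294% and 0.455% of the INT1 reads in DN against 0.107% and 0.0663% in B, a ratio of 4.34. The level of the enhancer fragment was higher in both DN libraries, with a log2 change of 2.11, 0.042 above the median of all fragments (limma adjusted p = 0.0397). Fragment 28, at 54765771 to 54768778, held 0.320% and 0.424% against 0.0828% and 0.0591%, a ratio of 5.25 (limma log2 change 2.38, adjusted p = 0.0303). With TMM scaling fragments 11, 14, 26 and 28 were no longer called, at log2 changes of 0.97, 1.11, 0.90 and 1.17 (limma adjusted p = 0.176, 0.161, 0.259 and 0.154), while fragments 12 and 19 still were, at 2.85 and 2.13. Over 17 alternatives fragments 11, 14, 26 and 28 were called in 6, 6, 7 and 8, and fragments 12 and 19 in 11 each.

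The fragments that took most INT1 reads in B were not those that rose. Fragment 9, at 54706512 to 54721932, is the longest of the stretch and held 0.563% and 0.670% in DN against 0.433% and 0.349% in B. Fragment 22, at 54741524 to 54748874, held 0.452% and 0.542% against 0.305% and 0.403%, and fragment 3, at 54693468 to 54699805, held 0.304% and 0.444% against 0.288% and 0.407%. The groups did not overlap in fragments 9 and 22 and overlapped in fragment 3. Their log2 changes were 0.66, 0.50 and 0.10 (limma adjusted p = 0.185, 0.303 and 0.839), all well under the median of 2.07, and each turned below 0 with TMM scaling, at -0.56, -0.72 and -1.11. For fragment 3 DESeq2, with its own size factors, gave -1.23 and called it lower in DN (DESeq2 adjusted p = 0.0368).

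At the end of the stretch near INT2, fragment 1 (54688077 to 54690201) was the highest of the stretch in DN, with 0.692% and 1.21% of the INT1 reads against 0.404% and 0.249% in B. Fragment 2 (54690208 to 54693461) held 0.499% and 0.704% against 0.238% and 0.369%. The groups overlapped in neither fragment, and neither passed the test (limma log2 change 1.53 and 0.998, adjusted p = 0.0610 and 0.118); that of fragment 2 turned to -0.22 with TMM scaling.

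Beside the enhancer, fragment 25 (54762708 to 54763256) held 0.00618% and 0.0754% of the INT1 reads in DN against 0.00687% and 0.00360% in B, and the groups overlapped. Fragment 27 (54765189 to 54765764) held 0.124% and 0.273% against 0.0246% and 0.0605%. At the TEA end, fragment 29 (54768785 to 54769466) held 0.201% and 0.511% against 0.0541% and 0.00565%. Both DN libraries were higher in fragments 27 and 29, which did not pass the test (limma log2 change 2.22 and 4.07, adjusted p = 0.0873 and 0.0609).

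The count of 8 from INT1 rests on single libraries, on the scaling and on the tool. It fell without DN replicate 1, DN replicate 2 or B replicate 1, and rose without B replicate 2. Without either DN replicate the share of members called was no longer above that of all fragments. Without 1 library the median log2 change of the members ranged from 1.90 to 2.73, against 1.61 to 2.47 over all fragments. On reads recovered from the deposited values, edgeR called 0 of 27 members and 0 of all 420 fragments. At an unadjusted edgeR p under 0.05 there were 18 members, against 123 of all 420. DESeq2 called 4 members higher and 1 lower, which was fragment 3, against 50 higher and 33 lower of all 420. It used its own size factors, under which the median log2 change of all tested fragments was 0.41, against 2.07 in the main fit. The DESeq2 calls thus differ from the main fit in scaling as well as in tool.

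From INT2 the members lay further above the median than from INT1, but 0 of the 28 tested passed the adjusted threshold, as did 0.0% of all 380 tested fragments. At an unadjusted limma p under 0.05 with DN higher there were 17 members of 28, against 26.6% of all fragments. The median log2 change of the members was 3.32 against 2.11 over all, with a range of -0.47 to 6.42, and 23 of 28 lay above the median of all. Both DN values exceeded both B values in 26 of 28 members, against 51.3% of all tested fragments, and in 25 of the 27 with a mean of at least 100 in each cell type, against 46.7%.

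The exception below 0 was the member nearest to INT2. Fragment 1 held 1.86% and 4.78% of the INT2 reads in DN against 3.66% and 4.69% in B, so the groups overlapped (limma log2 change -0.47 ± 0.52 SE, adjusted p = 0.559). The value depended on the scaling, at 0.65 with all mapped reads, -1.68 with TMM factors and -1.88 with reads within 1 Mb. DESeq2, with its own size factors, gave -1.68 and called fragment 1 lower in DN (DESeq2 adjusted p = 0.0395). Without DN replicate 1 the limma value was 0.21. Fragment 2 held 2.93% and 2.26% in DN against 1.68% and 1.64% in B, a ratio of 1.57 without overlap (limma log2 change 0.64, adjusted p = 0.177; -0.57 with TMM scaling).

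Further in, fragment 22 was the highest of the stretch in DN, with 2.79% and 3.90% of the INT2 reads against 0.367% and 1.24% in B. Both DN values exceeded both B values, with a ratio of means of 4.17 (limma log2 change 2.29 ± 0.68 SE, adjusted p = 0.115). In B cells fragments 1 and 2 were the highest, and fragment 22 came next at a mean of 0.802% ± 0.616 (SD, n = 2).

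Around the enhancer, fragment 25 held 0.101% and 0.0631% of the INT2 reads in DN against 0.0210% and 0.00369% in B. Fragment 27 held 0.266% and 0.350% against 0.0522% and 0.00456%, and fragment 29 held 0.648% and 0.594% against 0.166% and 0.00175%. No group overlapped in these 3 fragments, while the B replicates differed from each other by a wide margin in each. The log2 changes were 2.99, 4.16 and 4.86 with SE of 1.20, 1.33 and 2.14 (limma adjusted p = 0.177, 0.124 and 0.216).

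The smallest adjusted p of a member from INT2 was 0.0804 (limma). The count of 0 did not hold without B replicate 1. Without 1 library the median log2 change of the members ranged from 2.67 to 3.65, against 1.75 to 2.29 over all fragments. By edgeR 0 of 28 members were called and 0 of all 380 fragments. At an unadjusted edgeR p under 0.05 there were 14 members, against 81 of all 380. DESeq2 called 5 members higher and 1 lower, which was fragment 1, against 41 higher and 27 lower of all 380.

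Seen from TEA, 0 of the 24 tested members passed the adjusted threshold, and 0.0% of all 356 tested fragments did. At an unadjusted limma p under 0.05 with DN higher there were 20 of 24 members, against 26.4% of all fragments. Both DN values exceeded both B values in 23 of 24 members, against 60.1% of all, and in 22 of the 23 with that minimum in each cell type, against 51.2%. The median log2 change was 2.48 against 2.20 over all, with a range of 0.52 to 6.77, and 14 of 24 lay above the median of all.

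Fragment 29, the member nearest to TEA, took the most reads of the stretch in both cell types. It held 16.8% and 11.2% of the TEA reads in DN against 4.02% and 4.55% in B, a ratio of 3.27 without overlap (limma log2 change 1.68 ± 0.29 SE, adjusted p = 0.1002). Next to it, fragment 28 held 2.12% and 0.750% against 0.820% and 0.943%, and the groups overlapped (limma log2 change 0.52, adjusted p = 0.556, and -1.04 with TMM scaling).

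Fragment 24, at 54752613 to 54762701, lies between fragment 23 and the enhancer and was second in both cell types, with 2.21% and 2.62% of the TEA reads in DN against 1.79% and 1.35% in B. The groups did not overlap, but the log2 change of 0.63 lay 1.57 under the median of all fragments (limma adjusted p = 0.258) and turned to -0.94 with TMM scaling. Fragment 22 held 2.14% and 2.45% in DN against 0.421% and 0.268% in B, a ratio of 6.66 without overlap (limma log2 change 2.76 ± 0.41 SE, adjusted p = 0.1002).

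At the far end, next to INT2, fragment 1 held 1.35% and 2.35% of the TEA reads in DN against 0.342% and 0.650% in B. Its rank in the stretch was 4 in both cell types although it lies farthest from TEA, and both DN libraries were higher (ratio 3.73; limma log2 change 1.92, adjusted p = 0.138). Beside the enhancer, fragment 27 held 0.630% and 0.387% against 0.153% and 0.133%, a ratio of 3.56 (limma log2 change 1.79, adjusted p = 0.142).

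The member with the smallest adjusted p from TEA was fragment 19, chosen here after its values were seen. It held 1.20% and 1.51% of the TEA reads in DN against 0.0421% and 0.0463% in B, a ratio of 30.7 (limma log2 change 4.90 ± 0.48 SE, adjusted p = 0.0977). The count of 0 members did not hold when any 1 library was left out. Without 1 library the median log2 change of the members ranged from 2.29 to 2.89, against 1.89 to 2.40 over all fragments.

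From Ed the members had the same median change as all fragments. Their median log2 change was 2.29, equal to the median over all 171 tested fragments, with a range of -3.21 to 3.49, and 7 of the 15 tested lay above it. Fragments 1, 21 and 28 are among those above it, at 3.49, 3.41 and 3.48. Their B means were 0%, 0.000852% and 0.00142%, so they passed the filter through DN alone and the count above the median is a description. By limma 0 of 15 passed the adjusted threshold, as did 0.0% of all, and 5 of 15 had an unadjusted p under 0.05 with DN higher, against 12.9% of all. Both DN values exceeded both B values in 10 of 15 members, against 40.9% of all tested fragments, and in 7 of the 11 with that minimum in each cell type, against 34.4%.

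Fragment 24, the nearest member kept on the INT2 side of the enhancer, took the most Ed reads in both cell types. It held 32.5% and 7.97% in DN against 20.2% and 25.7% in B, so the DN replicates differed from each other by more than the cell types did (limma log2 change -0.50 ± 0.71 SE, adjusted p = 0.598). The value was 0.45 with all mapped reads, -1.67 with TMM factors, 0.51 without DN replicate 2 and -1.52 without DN replicate 1. Fragment 23, at 54748881 to 54751228, held 2.70% and 6.65% against 3.98% and 1.58%, and the groups overlapped there too (limma log2 change 0.75, adjusted p = 0.525, and -0.41 with TMM scaling).

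Fragment 19 held 3.00% and 6.85% of the Ed reads in DN against 0.5998% and 1.04% in B, a ratio of 6.00 without overlap. Fragment 22 held 1.98% and 7.66% against 1.53% and 1.09%, also without overlap, with DN replicate 2 far above the other 3 libraries. Their log2 changes were 2.52 and 1.60 with SE of 0.75 and 0.83 (limma adjusted p = 0.270 and 0.344).

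At the TEA end, fragment 29 held 1.39% and 1.02% of the Ed reads in DN against 0.321% and 0.256% in B, a ratio of 4.16 (limma log2 change 2.05 ± 0.81 SE, adjusted p = 0.334). At the INT2 end, fragment 1 held 0.0597% and 0.00107% in DN and 0% in both B libraries, which leaves its size resting on DN replicate 1 (limma log2 change 3.49 ± 2.78 SE, adjusted p = 0.507). Fragment 1 was tested here through DN alone, so its value is a description. The lowest log2 change, -3.21 for fragment 4 (54699812 to 54702503, named after its values were seen), rests on 1 library, since it held 0% and 0.00138% in DN against 0.202% and 0% in B (limma adjusted p = 0.525). The count of 0 called members from Ed did not hold without either DN replicate. Without 1 library the median log2 change of the members ranged from 1.82 to 2.16, against 1.66 to 2.06 over all fragments. By edgeR 0 of 15 members were called and 1 of all 171 fragments. At an unadjusted edgeR p under 0.05 there were 4 members, against 17 of all 171. DESeq2 called 0 members higher and 1 lower, which was fragment 4, against 11 higher and 12 lower of all 171.

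**Figure D3:**
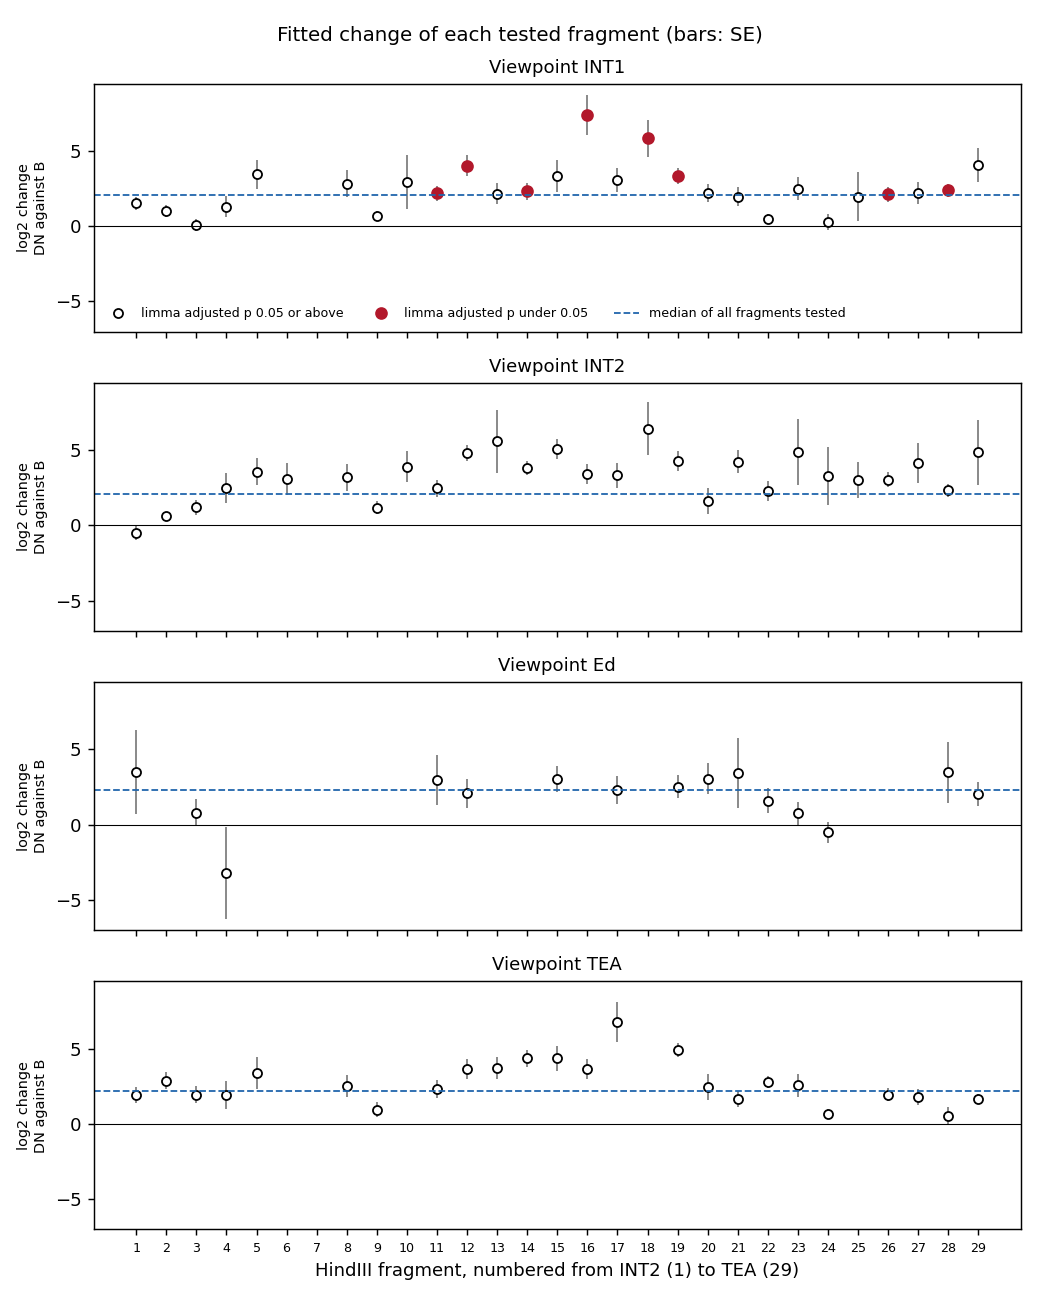
Log2 change (DN minus B, limma) of each tested fragment by fragment number and viewpoint, with its SE as a bar, the median of all tested fragments as a line, and filled points for the fragments called at an adjusted p under 0.05. The 8 filled points are all from INT1, and from INT2 23 of 28 members sit above the line.

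Set side by side, the viewpoints share their samples, so the values for a fragment are not independent of each other. Of the 15 members tested from all 4 viewpoints, 8 had both DN values above both B values each time (fragments 12, 15, 17, 19, 20, 21, 22 and 29), against 31.2% of the 112 fragments tested from all 4. Fragments 15 from INT1, 17 from TEA and 21 from Ed had B means of 0.00842%, 0.00348% and 0.000852%. These are under the filter minimum, so the fragments passed there through DN alone and the count is a description. Both B values exceeded both DN values in 0 of the 27 members tested from INT1, against 10.7% of all fragments tested. The counts were 0 of 28 against 10.8% from INT2, 0 of 15 against 6.43% from Ed and 0 of 24 against 3.93% from TEA. All these counts use the chromosome 14 reads as library size and were not repeated with another. They depend on that choice, since with reads within 1 Mb the log2 change of fragment 3 from INT1 was -0.69. Among the 15 members tested from all 4 viewpoints, fragments 11, 15 and 19 lay above the median change of all fragments each time. Fragment 3 lay below it each time.

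Fragment 15, at 54730571 to 54731951, shows this and was chosen after its values were seen. From INT2 it held 1.65% and 0.722% in DN against 0.0284% and 0.0351% in B, and from TEA 0.356% and 0.178% against 0.00806% and 0.0157%. From Ed it held 2.29% and 1.23% against 0.166% and 0.253%, and from INT1 0.0570% and 0.163% against 0.00825% and 0.00860%. No group overlapped, and the log2 changes lay 2.96, 2.16, 0.74 and 1.30 above the median of their viewpoint (limma adjusted p = 0.0804, 0.1002, 0.270 and 0.0767). From INT1 both B levels were under the filter minimum, so the fragment was tested there through DN alone and that value is a description.

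The make-up of the stretch was then compared by giving each fragment as a percentage of the stretch total of its library, which needs no outside denominator. From INT1, 17 fragments had a larger part in both DN than in both B libraries, 5 had a larger part in B, and 7 overlapped. From INT2 these counts were 19, 2 and 8, from Ed 15, 1 and 10, and from TEA 10, 3 and 16. The parts of a library add up to a fixed total, so where a fragment takes less, others take more. From INT2 fragment 1 held a mean of 43.4% in B against 11.7% in DN. From Ed fragment 24 held 77.5% against 44.2%. The counts are therefore not separate gains of single fragments. Some of these rest on levels under the limit of 3 reads, and with both DN levels over it the counts in favour of DN were 16, 19, 13 and 10. On that basis fragments 12, 14, 15, 16, 17 and 19 had a larger part in DN from all 4 viewpoints. From Ed, fragments 14 and 16 were too low for the test and rest on few reads. Their Ed levels in DN were 0.00237% and 0.00382% for fragment 14, and 0.00414% and 0.00275% for fragment 16. By the plain count, fragments 2, 9 and 24 had a larger part in B from at least 2. Fragment 2 was split, with a larger part in B from INT1 and INT2 and a larger part in DN from Ed and TEA.

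The reads in B cells were gathered in fewer fragments from all 4 viewpoints. The 3 highest fragments held 30.3% and 39.3% of the INT2 stretch reads in DN against 67.9% and 76.8% in B. From INT1 they held 28.0% and 25.1% against 44.8% and 38.5%, and from TEA 60.4% and 50.5% against 69.4% and 71.1%. From Ed they held 80.6% and 56.0% in DN against 91.9% and 91.3% in B, so both B libraries lay above both DN libraries from each viewpoint.

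Fragments near the viewpoint held the largest parts from INT2 in B, and from TEA and Ed in both cell types. From INT2 fragment 1 held 43.4% ± 5.93 (SD, n = 2) of the stretch reads in B against 11.7% ± 6.03 in DN, while from TEA fragment 29 held 44.7% ± 3.64 against 41.4% ± 9.35, which overlapped. From Ed fragment 24 held 72.2% and 82.7% in B against 68.5% and 19.9% in DN. The kept member nearest to Ed was fragment 28, at 3.05 kb, which held means of only 0.0663% in DN and 0.00474% in B. Fragment 19, in the middle of the stretch, held 7.36% ± 4.28 of the INT2 stretch reads in DN against 1.004% ± 0.242 in B, and 4.06% ± 0.876 of those from TEA against 0.461% ± 0.0290.

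The order of the fragments is given as a description over 29 fragments (26 from Ed) that share a library. Spearman's rho between the DN replicates was 0.906 from INT1, 0.909 from INT2, 0.916 from Ed and 0.821 from TEA. Between the B replicates it was 0.883, 0.554, 0.843 and 0.963, lowest from INT2. Between a DN and a B library it ranged from 0.737 to 0.873 from INT1, 0.685 to 0.793 from INT2, 0.813 to 0.918 from Ed and 0.838 to 0.890 from TEA. From INT2, Ed and TEA these ranges reach or pass a value between replicates.

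**Figure D4:**
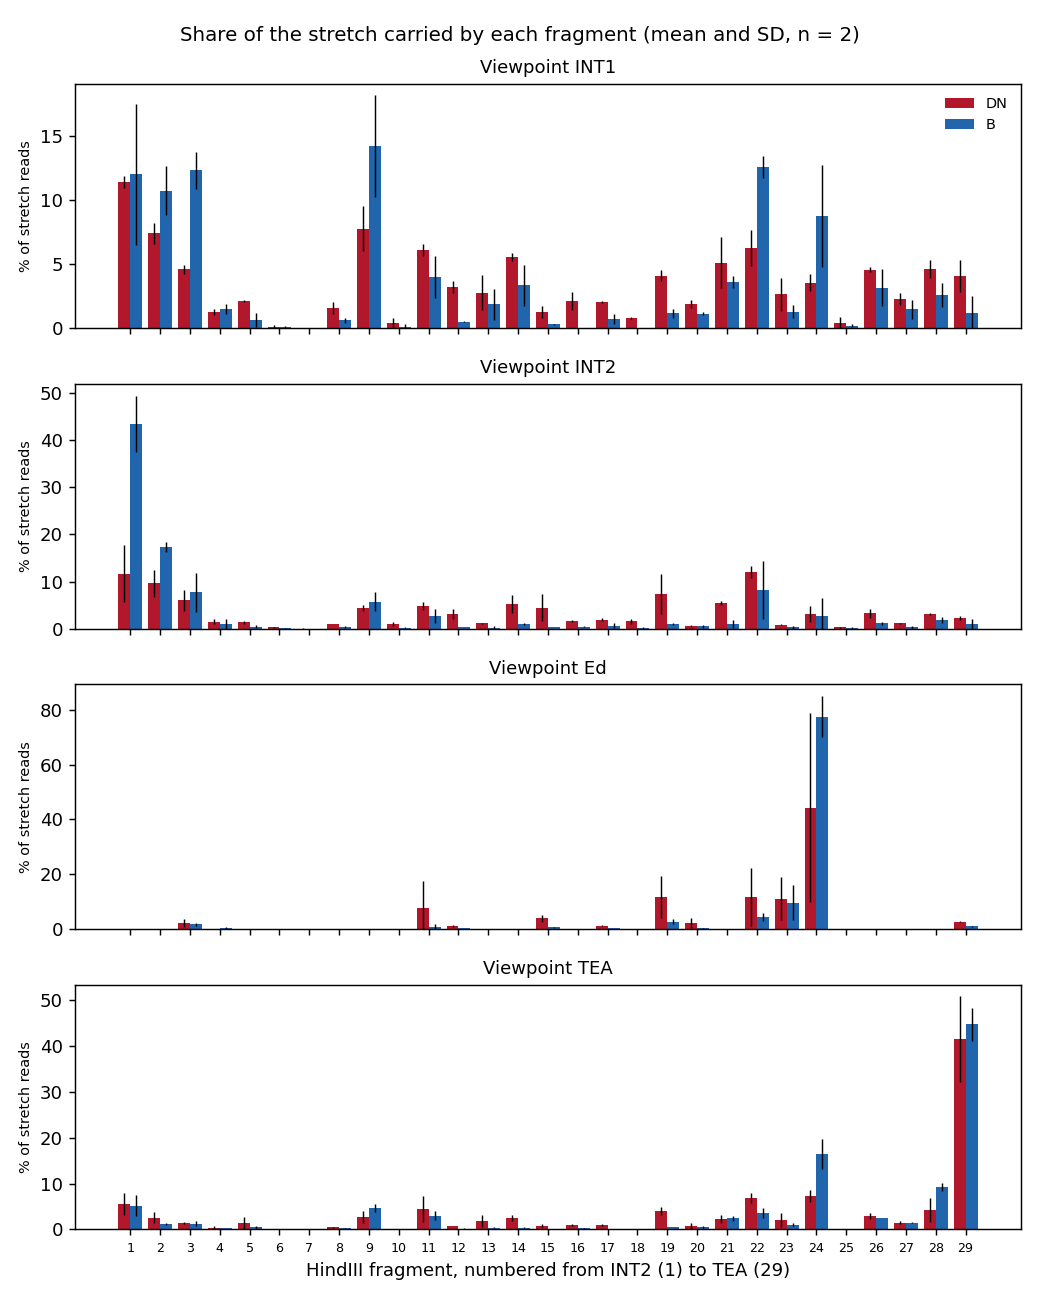
Each fragment's percentage of the stretch reads of its library, by fragment number and viewpoint, with the mean of the 2 libraries per cell type and the SD as a bar. From INT2 fragment 1 holds 43.4% in B against 11.7% in DN, and from Ed fragment 24 is the highest in both cell types.

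Within the stretch, the side toward INT2 and the side toward TEA of the Ed fragment did not differ between cell types by the same ratio. The 3 members on the TEA side held a mean of 0.927% in DN against 0.143% in B from INT1, a ratio of 6.46, and 1.77% against 0.283% from INT2, a ratio of 6.25. The 25 members on the INT2 side had ratios of 2.71 from both. From Ed the ratios were 4.25 on the TEA side (2 members) and 1.45 on the INT2 side (24 members), and from TEA they were 3.00 and 4.13.

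The log2 ratio of the INT2 side to the TEA side was 3.05 and 2.84 in DN against 3.82 and 4.52 in B from INT1. From INT2 it was 3.70 and 3.92 against 4.37 and 6.08, and from Ed 5.002 and 5.25 against 6.42 and 6.90. Both DN libraries lay below both B libraries in these 3, by means of -1.23, -1.42 and -1.54 (exact permutation p = 0.333 each), while from TEA the libraries overlapped with a difference of 0.48 (exact permutation p = 0.667). When each captured fragment was counted once, whatever its reads, these differences turned to 0.22, 0.090 and 0.38. Without the highest fragment they were -1.23, -0.75 and -0.35, and with 2 fragments left out on each side -0.32 from Ed, where fragment 24 is the highest. From INT2 the difference was -2.27 without B replicate 1 and -0.56 without B replicate 2. The overlapping difference from TEA was 1.24 without the highest fragment, 1.03 without DN replicate 1 and -0.058 without DN replicate 2.

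To set the stretch against DNA at the same distances, it was divided by the equally wide stretch on the other side of the viewpoint. From INT1 the log2 ratio was 0.056 and 0.29 in DN against 0.88 and 0.91 in B, so both DN libraries lay lower, by 0.72 on average (exact permutation p = 0.333). The far side of INT1, toward the V segments, had thus the larger ratio of DN to B, 4.79 against 2.96 for the stretch. From TEA the log2 ratio was 3.07 and 2.74 in DN against 2.52 and 2.46 in B, higher in both DN libraries (difference 0.41, exact permutation p = 0.333). From INT2 it was 2.98 and 2.76 against 2.87 and 2.11, which overlapped (difference 0.38, exact permutation p = 0.667). The INT2 difference was 1.40 with 10 kb around the viewpoint left out, 1.03 without the highest fragment, 0.76 without B replicate 1 and 0.0013 without B replicate 2. The TEA difference was 0.70 with 10 kb left out and 0.25 without DN replicate 1, and with fragments counted once the INT2 and TEA differences turned to -0.20 and -0.13. The INT1 difference was -1.05 without the highest fragment and -0.14 with fragments counted once.

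INT1 and INT2 lie side by side, and the stretch took more of the INT2 reads in every sample. The log2 ratio of the INT2 share to the INT1 share was 2.01 and 1.54 in DN against 1.87 and 1.69 in B. The means of 1.77 ± 0.329 and 1.78 ± 0.131 (SD, n = 2) differed by less than the spread within DN (exact permutation p = 1). This rested on the highest fragments and on those nearest the viewpoints. The difference, DN minus B, was -0.0050 in the main setting and 0.63 without the highest fragment. With 2 fragments left out on each side it was 0.75.

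Among 194 windows of 10 kb within 1 Mb of the stretch, the windows whose share followed the stretch most closely over the 16 libraries were at 54.36 to 54.37 Mb, 54.79 to 54.80 Mb and 53.87 to 53.88 Mb. Pearson's r was 0.814, 0.701 and 0.699 on the log2 scale, against a median of -0.216 over all windows. These values describe libraries that share samples and viewpoints, and distance to the viewpoint enters both sides, so no p is given.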

How the data were processed

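Chromatin was cut with HindIII, ligated, cut with DpnII, ligated again and amplified by inverse PCR, per the labels' protocols. The authors deposited 1 table per library of RPM values (reads scaled to 1000000 mapped reads) per HindIII fragment; per the submitters' processing notes CASAVA and Bowtie were used with mm9, and versions and settings are not given in the sources used here. Fragments not listed were taken as 0. The 8 deposited files of averaged values were not used.

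The fragment of chromosome 14 with most reads was taken as the viewpoint. It and its neighbours were left out, and the rest of chromosome 14 was the library size. Each viewpoint was fitted separately with limma 3.58.1 (R 4.3.3, trend, two-sided) on 2 DN against 2 B libraries, without a block, over fragments within 1 Mb with a mean of at least 100 RPM of it, pseudocount 10, Benjamini-Hochberg threshold 0.05. Shares and ratios had exact two-sided permutation tests, which cannot give a p under 0.333. The script was tested on simulated data. Dividing the deposited RPM by the worth of a single read gave whole numbers (within 0.01) for 99.9988% to 100% of values, and edgeR 4.0.16 and DESeq2 1.42.0 were run as alternatives on those counts for INT1, INT2 and Ed. The chromosome 14 reads were the library size in edgeR, whereas DESeq2 estimated its own size factors. In the TEA libraries counting and rounding could not be separated, so their depth is approximate and no count test was run.

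Named are the fragments called in the fit, the 3 highest in each cell type, the lowest, and those beside Ed and at the ends of the stretch, per viewpoint; fragments 15 and 19 from other viewpoints were added after their values were seen. The members and lists were chosen with earlier results of these data known. Other alternatives were other pseudocounts, filters and library sizes, TMM factors, all chromosome 14 fragments, no trend, a replicate block and leaving out each library. Counts among fragments with the minimum in each cell type, and counts over the limit of 3 reads, were added after the values were seen.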

Additional observations from a re-analysis of the deposited data

How the results depend on the processing

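The number of libraries limits every comparison, since 2 against 2 cannot give an exact p under 0.333, and the lone library left in a cell type by a leave-one-out fit is assumed to vary like the other cell type. The shallowest library had 169129 chromosome 14 reads, so levels under about 0.00177% could not be told from 0 there. The share of the stretch kept its direction from INT1, INT2 and TEA under each alternative, and from Ed under each except the library size within 1 Mb, which gave -7.39 percentage points.

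Members called higher from INT1 are given against all fragments called higher, of 27 and 420 tested unless stated. They numbered 19 against 114 with a pseudocount of 100, and 0 of 29 against 0 of 570 with no filter. With a filter at 500 they numbered 17 of 24 against 112 of 215. With all mapped reads they numbered 21 against 191, with reads within 1 Mb 4 against 41 and with TMM factors 4 against 49. Over all chromosome 14 fragments they numbered 0 against 0 of 1116, and with no trend 2 against 33. With edgeR they numbered 0 against 0, and with DESeq2 4 against 50. The count also moved without 1 library. From INT2 they numbered 7 of 26 against 8 of 193 with the filter at 500, and 9 of 28 against 37 of 380 with all mapped reads. Over all chromosome 14 fragments they numbered 7 of 28 against 153 of 1732, and with DESeq2 5 of 28 against 41 of 380. From TEA they numbered 1 of 24 against 1 of 154 with the filter at 500, and 8 of 24 against 15 of 356 with all mapped reads. Over all chromosome 14 fragments they numbered 4 of 24 against 5 of 1598. The counts from INT2, TEA and Ed also moved in some fits without 1 library. Samples with the same replicate number did not deviate together (correlations of -0.076 to 0.067). With the replicate block 13 of 27 members were called higher from INT1, against 104 of 420 fragments, and 19 of 28 from INT2, against 53 of 380. From TEA 4 of 24 were, against 7 of 356, and from Ed 0 of 15, against 0 of 171. Shares and ratios have the same difference with the block by construction, so it says nothing of their stability. The cause of these shifts was not tested.

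Counting each captured fragment once turned the ratio to the other side of the viewpoint to -0.20 from INT2 and -0.13 from TEA, and the ratio of the sides of Ed to 0.22 from INT1, 0.090 from INT2 and 0.38 from Ed. The ratio of the sides from TEA ranged from -0.058 to 1.03 without 1 library. The difference in the INT2 to INT1 ratio, near 0, was 0.019 with all mapped reads, 0.63 without the highest fragment, 0.39 with fragments counted once, 0.75 with 2 fragments left out and -0.24 to 0.23 without 1 library.

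Of 559 values of the 34 tested pairs of a named fragment and a viewpoint under an alternative, 442 kept direction and side of the threshold, 59 lost and 30 gained the call, and 28, in 10 pairs, changed sign. With TMM factors, log2 changes were -0.22, -1.11, -0.56 and -0.72 for fragments 2, 3, 9 and 22 from INT1, -0.57 for fragment 2 from INT2, -0.41 for fragment 23 from Ed, and -0.94 and -1.04 for fragments 24 and 28 from TEA. With DESeq2 they were -0.33, -1.23, -0.68 and -0.81 for the same 4 from INT1, -0.63 for fragment 2 from INT2 and -0.51 for fragment 23 from Ed. With reads within 1 Mb they were -0.69, -0.14 and -0.30 for fragments 3, 9 and 22 from INT1, -0.77 for fragment 2 from INT2, and -1.01 and -1.11 for fragments 24 and 28 from TEA. With all mapped reads they were 0.65 for fragment 1 from INT2 and 0.45 for fragment 24 from Ed, and with 2 fragments left out -0.0097 for fragment 3 from INT1. Without 1 library they ranged from -0.17 to 0.37 for fragment 3 from INT1, -1.15 to 0.21 for fragment 1 from INT2, -1.52 to 0.51 for fragment 24 from Ed and -0.23 to 1.27 for fragment 28 from TEA.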
